A study of Mus musculus with 12 samples.

Results

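Neuronal splicing regulators were followed in the hippocampus and the cerebral cortex of WT and 5 × FAD mice. The 10 genes chosen were Srrm4, Srrm3, Nova1, Nova2, Rbfox1, Rbfox2, Rbfox3, Ptbp1, Ptbp2 and Mbnl2, and every transcript of these genes in the deposited table was taken by the gene name its identifier has in the GENCODE M21 annotation of GRCm38. This gave 22 of the 48033 transcripts of the table, from 6 of its 22103 genes and assembled loci. There were 2 transcripts of Srrm4, 3 of Srrm3, 2 of Nova1, 2 of Rbfox3, 7 of Ptbp1 and 6 of Ptbp2. No transcript of Nova2, Rbfox1, Rbfox2 or Mbnl2 was analysed here. The set was chosen by the counts of a Srrm4 transcript in the hippocampus, which differed between 5 × FAD and WT mice. That difference is therefore given as a description, and nothing is read from its passing a test.

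Splicing regulators of this kind bind pre-mRNA and decide which exons neurons keep. SRRM4 (nSR100) and its relative SRRM3 favour the inclusion of neuronal microexons, NOVA1 binds clustered YCAY motifs, and RBFOX proteins bind the motif UGCAUG, RBFOX3 being the neuronal marker NeuN. PTBP1 represses neuronal exons in cells that are not neurons, and PTBP2 is its close relative in developing and mature neural tissue.

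The libraries came from mice aged 7 months on a C57BL/6J background, 3 per group, in 4 groups: hippocampus of WT mice, hippocampus of 5 × FAD mice, cerebral cortex of WT mice and cerebral cortex of 5 × FAD mice. The 5 × FAD mice carry transgenes of familial Alzheimer's disease, driven by elements of the neuronal Thy1 gene, and the WT mice carry none. Total RNA was depleted of ribosomal RNA and sequenced as stranded libraries, and raw counts per transcript were deposited. The paper's sequencing methods, which go on to circRNAs, also list removal of linear RNA by RNase R. Whether that step was used for the libraries of this table was not tested. Each library held between 3517967 and 5014389 counts, of which the 22 transcripts took between 0.0296% and 0.0649%. A count of 3, taken as the smallest amount detected, equals 0.598 to 0.853 CPM, a count scaled by depth, when the raw library total is used, whereas all other CPM values include the TMM scaling factors. These limits cover counting error only.

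The libraries labelled 5 × FAD 1 and 5 × FAD 2 stood apart in both regions. Xist, the RNA of the inactive X chromosome, had between 30468 and 46630 counts in these 4 libraries and at most 25 in the other 8. Y-linked transcripts had 0 counts in the 4 libraries and between 1074 and 1661 in each of the others. The series states a composition of 2 females and 1 male in each group, which these counts match in 5 × FAD mice but not in WT mice, whose 6 libraries all held Y-linked transcripts. Trem2, a microglial receptor and the only gene of 8 microglial markers with a transcript in the table, was at 174 to 230.5 CPM in the same 4 libraries. It was at 40.2 CPM in 5 × FAD 3 of the hippocampus and at 19.7 CPM in 5 × FAD 3 of the cortex, against 19.4 to 53.3 CPM in WT mice. Thy1, whose elements drive the transgenes, has only non-coding transcripts in the table, and their sum was at 103 to 143 CPM in the 4 libraries, at 38.7 and 35.5 CPM in those labelled 5 × FAD 3 of the hippocampus and the cortex, and at 30.1 to 45.8 CPM in WT mice. Both libraries labelled 5 × FAD 3 thus lay within the range of the 6 WT libraries in Thy1 and Trem2, unlike the other 4 labelled 5 × FAD. They are also the only libraries labelled 5 × FAD with Y-linked transcripts, and whether their label is right was not tested. Whether transgene reads fall on these Thy1 transcripts was not tested. Libraries are named by their labels throughout. Genotype results of Srrm4 ENSMUST00000150127 and of some gene sums are also given without those labelled 5 × FAD 3. The other genotype results, among them those of the lists of other regulators and target genes, are given with all libraries only. Sex, Trem2, Thy1 and genotype cannot be told apart in these groups. Among markers of the regions, Zbtb20, a transcription factor of hippocampal pyramidal neurons, was higher in the hippocampus of WT mice (log2 fold change 1.91, SE 0.16, adjusted p = 0.00423 by edgeR), as was Prox1os, so that both hippocampus markers tested passed. Of 6 cortex markers tested, 1, the layer marker Cux1, was lower in the hippocampus (-1.002, SE 0.16, adjusted p = 0.0211 by edgeR), and Etv1 was at 0.74 (SE 0.34, adjusted p = 0.325). In 5 × FAD mice Zbtb20 was at 1.33 (SE 0.18, adjusted p = 0.0497 by edgeR) and Prox1os at 1.73 (SE 0.37, adjusted p = 0.123). There, 0 of the 6 cortex markers passed. Prox1, Wfs1 and Fezf2 had no transcript among those analysed. In bulk tissue, fewer cells of a type and less RNA per cell cannot be told apart.

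All 22 transcripts are annotated as non-coding forms of these genes, either retained-intron transcripts or processed transcripts, which have no open reading frame assigned. The protein-coding transcripts of Srrm4 are not in the table. The longer Srrm4 transcript, ENSMUST00000150127, is a retained-intron transcript of 5 exons and 6555 bases, on the minus strand of chromosome 5 from 116439275 to 116453913. Of its bases, 6354 (96.9%) lie in exons of the protein-coding transcripts of Srrm4, and 1059 of these are coding sequence. The part that sets it apart is its first 200 bases, from 116453714 to 116453913, which are intron in the coding transcripts, plus 1 base at its 3′ end. The shorter transcript, ENSMUST00000201430, is a single exon of 779 bases from 116476290 to 116477068, and all but its first 10 bases are intronic. The bases printed here are the start of each Srrm4 transcript on GRCm38, because these bases decide whether a read belongs to a retained intron or to a coding exon. Capitals mark exon sequence of the coding transcripts and small letters mark intron sequence.
Srrm4 ENSMUST00000150127, chr5:116453674-116453913, minus strand: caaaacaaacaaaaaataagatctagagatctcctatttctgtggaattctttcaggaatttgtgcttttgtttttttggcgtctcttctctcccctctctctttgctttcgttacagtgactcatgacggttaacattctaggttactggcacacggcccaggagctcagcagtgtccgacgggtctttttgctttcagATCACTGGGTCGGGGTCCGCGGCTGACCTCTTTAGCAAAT
Srrm4 ENSMUST00000201430, chr5:116476969-116477068, minus strand: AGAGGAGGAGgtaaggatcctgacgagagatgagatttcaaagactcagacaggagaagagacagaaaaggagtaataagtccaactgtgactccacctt

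The first sequence runs through the end of an intron, with its polypyrimidine stretch and the final cag, into an exon. The second leaves an exon through the gt of a 5′ splice site. The RBFOX motif TGCATG, searched on the transcript strand, was not among the first 200 bases of ENSMUST00000150127, and 4.6% of the 45022 transcripts of at least 200 bases held it in their first 200 bases. The triplet TGC, part of the motif to which SRRM4 is known to bind, occurred 3 times there, and the median over the same transcripts was 3.

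**Figure D1:**
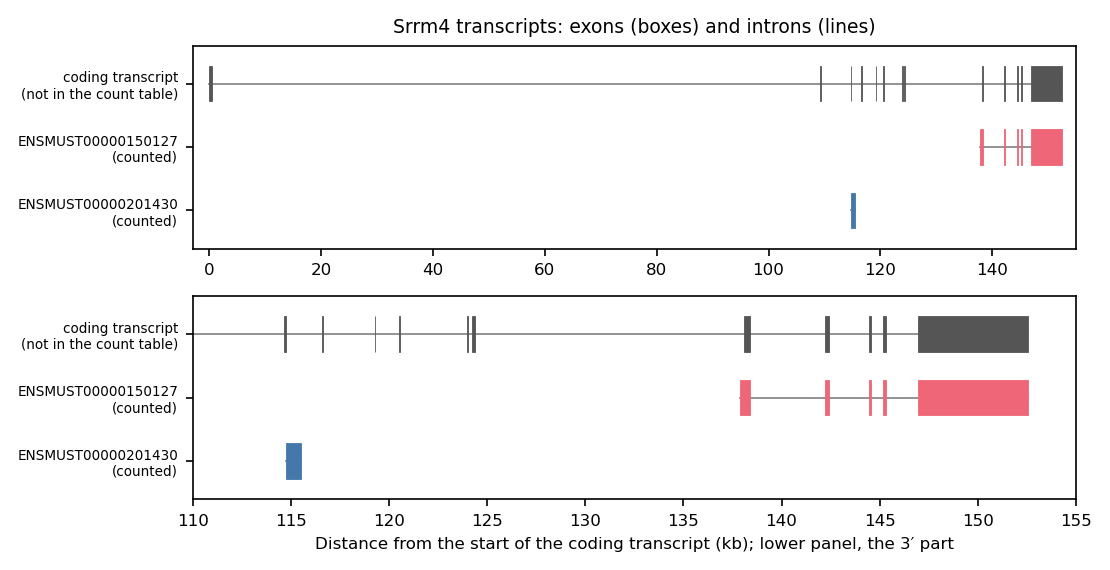
Exons (boxes) and introns (lines) of Srrm4 by distance from the start of the coding transcript in kb, with the 3′ part enlarged in the lower panel. The counted transcript ENSMUST00000150127 covers the last 5 exons of the coding transcript and extends the first of them into the intron by 200 bases, and ENSMUST00000201430 lies almost wholly in an intron.

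Srrm4 ENSMUST00000150127 was either low or high in each library, with no library between. In the hippocampus it had 33, 41 and 27 counts in WT 1, 2 and 3 and 788, 691 and 561 counts in 5 × FAD 1, 2 and 3. In the cortex it had 1006, 24 and 24 counts in WT 1, 2 and 3 and 26, 21 and 1090 counts in 5 × FAD 1, 2 and 3. Thus 5 libraries were high, at 138 to 247 CPM, and 7 were low, at 5.16 to 8.73 CPM. The lowest high library was 15.8-fold above the highest low library, and the medians of the high and the low libraries differed 31.2-fold. The 5 high libraries were all 3 of 5 × FAD hippocampus, WT 1 of the cortex and the library labelled 5 × FAD 3 of the cortex. They included 2 of the 4 libraries with high Xist, and the transcript was high in both libraries labelled 5 × FAD 3, where Trem2 was at 40.2 and 19.7 CPM. The part of sex or microglial RNA in these levels was not tested. On the log2 scale its SD over the 12 libraries was 2.43, above 98.7% of the 24632 transcripts that passed the filter on low counts, whose median was 0.45. The hippocampus libraries for which the transcript was chosen are part of this SD, so nothing is read from its rank.

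The 5 × FAD and WT libraries of the hippocampus did not overlap for this transcript. Its mean was 163 CPM ± 27.4 in 5 × FAD mice and 7.32 CPM ± 1.31 in WT mice (SD, n = 3 each), a log2 fold change of 4.49 (SE 0.27). The value was between 4.36 and 4.63 when any 1 library was left out, and 4.605 (SE 0.24) without the library labelled 5 × FAD 3. With only the libraries that held Y-linked transcripts, which leaves that library alone against 3 of WT mice, it was 4.23, a value that 1 library decides. Of the 13 transcripts of these genes tested in that comparison, 1, this transcript, passed an adjusted p of 0.05, against 0.0183% of all 21894 transcripts tested. As a sum over both Srrm4 transcripts the log2 fold change was 4.12 (SE 0.21), and 1 of 6 gene sums passed, against 0.0529% of 11343. Since Srrm4 was chosen for this difference, nothing is read from these counts.

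The cortex libraries of the same genotypes overlapped. The mean of ENSMUST00000150127 there was 86.0 CPM ± 139 in 5 × FAD mice and 84.0 CPM ± 135 in WT mice (SD, n = 3 each). Its log2 fold change was 0.05 (SE 1.91, adjusted p = 0.998 by edgeR). A single library decided this value: it was 3.84 without WT 1 of the cortex and -3.86 without the library labelled 5 × FAD 3 of the cortex, and neither passed.

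Between the regions, the hippocampus of WT mice was low throughout and the cortex of WT mice had 1 high library. The log2 fold change of hippocampus against cortex was -3.52 (SE 1.51), and without WT 1 of the cortex it was 0.28 (SE 0.30). In 5 × FAD mice the hippocampus was high throughout and the cortex again had 1 high library. There the log2 fold change was 0.91 (SE 1.36), and without the library labelled 5 × FAD 3 of the cortex it was 4.83 (SE 0.33). The sum of both Srrm4 transcripts was at 0.92 (SE 1.20) with that library and at 4.46 (SE 0.31) without it. These region comparisons share the hippocampus libraries with the comparison that chose Srrm4 and are given as a description. The genotype difference was 4.43 larger on the log2 scale in the hippocampus than in the cortex (SE 2.24), a value that includes the hippocampus contrast and is given as a description. It was 0.62 without WT 1 of the cortex and 8.35 without the library labelled 5 × FAD 3 of the cortex.

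The second Srrm4 transcript did not move with the first. ENSMUST00000201430 had 10, 8 and 16 counts in WT hippocampus, 10, 19 and 6 in 5 × FAD hippocampus, 10, 23 and 16 in WT cortex and 11, 5 and 5 in 5 × FAD cortex. All groups overlapped by CPM, those of the cortex only because WT 1 at 2.39 CPM lay just below 5 × FAD 1 at 2.42 CPM. Its log2 fold change was 0.17 (SE 0.52) in the hippocampus and -1.24 (SE 0.46, adjusted p = 0.913 by edgeR) in the cortex. It made up between 0.457% and 2.68% of the Srrm4 counts in the high libraries and between 16.3% and 48.9% in the low libraries. In the low libraries, therefore, the sum of Srrm4 rests on 26 to 49 counts.

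**Figure D2:**
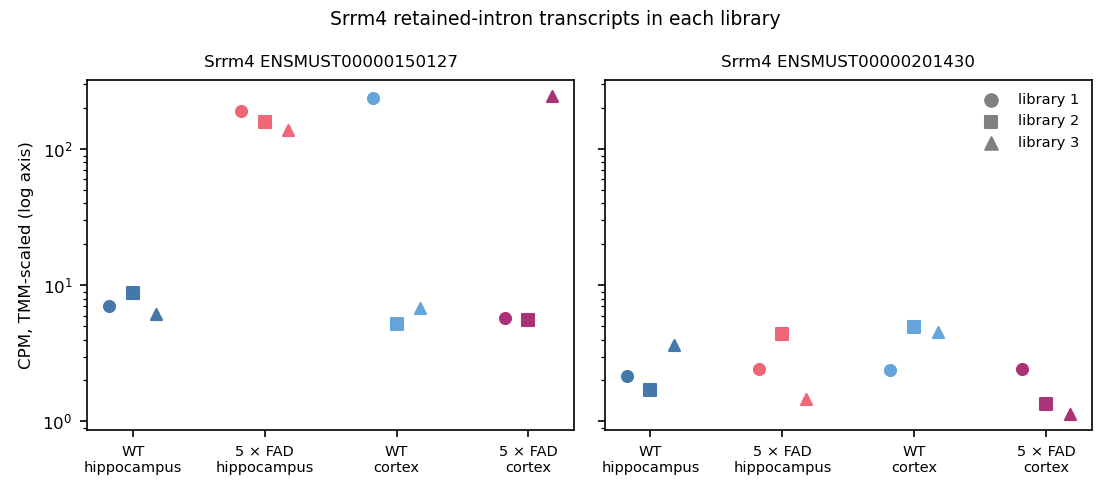
CPM (log axis, TMM-scaled) of the 2 Srrm4 transcripts in each library by group, 3 libraries per group, with the marker shape giving the library number. ENSMUST00000150127 is at 138 to 247 CPM in 5 libraries and at 5.16 to 8.73 CPM in 7, while ENSMUST00000201430 stays between 1.13 and 4.95 CPM.

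Srrm3, the paralog of Srrm4 that acts on overlapping microexons, was present in every library. Its summed counts were 224, 224 and 182 in WT hippocampus, 310, 201 and 316 in 5 × FAD hippocampus, 267, 330 and 249 in WT cortex and 249, 211 and 344 in 5 × FAD cortex. In CPM, WT hippocampus (41.4 to 48.1) lay wholly below WT cortex (63.7 to 71.0), while the groups of 5 × FAD mice overlapped. The share of all features whose groups do not overlap was not counted. Groups that do not overlap, here and below, are therefore given as a description only. Hippocampus against cortex gave -0.60 on the log2 scale in WT mice (SE 0.13, adjusted p = 0.0673 by edgeR) and 0.08 in 5 × FAD mice (SE 0.27, adjusted p = 0.929). The WT value passed with library size as the only scaling (-0.66, adjusted p = 0.0401 by edgeR) and with DESeq2 (-0.59, adjusted p = 0.0375). The difference between genotypes was 0.59 in the hippocampus (SE 0.24, adjusted p = 0.558 by edgeR) and -0.11 in the cortex (SE 0.18, adjusted p = 0.93).

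The longest Srrm3 transcript, ENSMUST00000146038, a retained-intron form on the plus strand of chromosome 5 from 135806890 to 135841953, held 58.8% of the Srrm3 counts. Of its 1995 bases, 1506 are in no exon of a coding transcript. It had 129, 115 and 118 counts in WT hippocampus and 165, 199 and 159 in WT cortex, groups that do not overlap, with a log2 fold change of -0.70 (SE 0.15, adjusted p = 0.11 by edgeR). ENSMUST00000135615 ranged from 45 to 108 counts over the 12 libraries. ENSMUST00000150566, whose 567 bases are intronic but for 37, was at 0 counts in WT 3 of the hippocampus and 5 × FAD 1 of the cortex and between 30 and 70 in the other 10 libraries. Its absence from those libraries followed neither genotype nor region.

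Nova1, which encodes a KH-domain regulator of synaptic exons, was among the lowest sums. It had 47, 37 and 69 counts in WT hippocampus, 27, 46 and 76 in 5 × FAD hippocampus, 47, 60 and 30 in WT cortex and 72, 45 and 109 in 5 × FAD cortex, and all groups overlapped by CPM. The log2 fold change of 5 × FAD against WT was 0.13 in the hippocampus (SE 0.44, adjusted p = 0.941 by edgeR) and 0.69 in the cortex (SE 0.32, adjusted p = 0.756). Of its counts, 93.4% fell on ENSMUST00000218829, a retained-intron transcript on the minus strand of chromosome 12 from 46719778 to 46818775. The other transcript, ENSMUST00000220258, had at most 8 counts and did not pass the filter.

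Rbfox3 had the lowest mean over the 12 libraries of the 6 sums, 10.5 CPM, with 29, 53 and 56 counts in WT hippocampus, 64, 34 and 63 in 5 × FAD hippocampus, 29, 57 and 40 in WT cortex and 46, 35 and 31 in 5 × FAD cortex. The groups overlapped in each comparison. The 5 × FAD against WT value was 0.41 in the hippocampus (SE 0.39, adjusted p = 0.76 by edgeR) and -0.20 in the cortex (SE 0.31, adjusted p = 0.924). Both transcripts are processed transcripts of 2 exons from the 5′ part of the gene on chromosome 11 and hold no annotated coding bases. ENSMUST00000128863, from 118811278 to 118888689, carried 93.3% of the counts, and ENSMUST00000134774 had between 1 and 5 counts per library.

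Ptbp1, the repressor of neuronal exons, was highest in the cortex of 5 × FAD mice. Its summed counts were 307, 336 and 224 in WT hippocampus, 301, 169 and 292 in 5 × FAD hippocampus, 380, 236 and 336 in WT cortex and 594, 393 and 601 in 5 × FAD cortex. By CPM, 5 × FAD cortex (105 to 136) did not overlap with WT cortex (50.8 to 95.6) or with 5 × FAD hippocampus (39.0 to 73.3). How many of all sums do the same was not counted, so nothing is read from this. The log2 fold change of 5 × FAD against WT in the cortex was 0.66 (SE 0.26, unadjusted p = 0.0378, adjusted p = 0.74 by edgeR). Hippocampus against cortex in 5 × FAD mice gave -1.01 (SE 0.28, unadjusted p = 0.00819, adjusted p = 0.225 by edgeR), and -0.35 in WT mice (SE 0.26, adjusted p = 0.574). None of these passed after adjustment. In the hippocampus the genotypes differed by 0.01 (SE 0.28, adjusted p = 0.991 by edgeR), and that value kept its sign in 6 of 15 alternatives.

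The single Ptbp1 transcripts varied more than their sum. ENSMUST00000169580, the retained-intron form that reaches furthest 3′, on the plus strand of chromosome 10 from 79862017 to 79864432, had 106, 221 and 40 counts in WT hippocampus and 250, 66 and 82 in 5 × FAD hippocampus. In the cortex it had 232, 59 and 197 counts in WT mice and 351, 212 and 331 in 5 × FAD mice, a log2 fold change of 0.77 (SE 0.53, adjusted p = 0.913 by edgeR), with 5 × FAD 2 at 56.5 CPM just above WT 3 at 56.0 CPM. Its share of the Ptbp1 counts ran from 17.9% to 83.1% over the 12 libraries. ENSMUST00000171216, all of whose 744 bases lie in coding exons, had 25, 65 and 98 counts in WT hippocampus and 11, 75 and 118 in 5 × FAD hippocampus. In the cortex it had 10, 64 and 89 counts in WT mice and 140, 138 and 172 in 5 × FAD mice, groups that do not overlap, with a log2 fold change of 1.38 (SE 0.70, adjusted p = 0.913 by edgeR). ENSMUST00000165153, a form of 13 exons, ran from 10 to 135 counts. The SDs of these 3 transcripts over the 12 libraries were 1.05, 1.25 and 1.02 on the log2 scale, above 89.1% to 93.1% of the transcripts that passed the filter, whereas the sum had an SD of 0.55, above 71.8% of all sums. Their values share exons: 1093 of the 2108 bases of ENSMUST00000169580 and 2075 of the 2369 bases of ENSMUST00000165153 also lie in another transcript of the table. All 744 bases of ENSMUST00000171216 do, so no base sets its reads apart from those of other transcripts. The part of read assignment in the spread of these transcripts was not tested. The intron that marks ENSMUST00000165153 is shown on GRCm38, because its 79 bases in small letters are the only ones outside coding exons and the 20 bases on either side in capitals are exons.
Ptbp1 ENSMUST00000165153, chr10:79859503-79859621, plus strand: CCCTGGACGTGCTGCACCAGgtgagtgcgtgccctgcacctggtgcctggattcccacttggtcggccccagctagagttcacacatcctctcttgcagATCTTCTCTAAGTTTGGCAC

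Here the intron begins with gt and ends with ag, and reads from the exons on either side do not tell the retained form from the spliced one. The remaining Ptbp1 transcripts were low: ENSMUST00000168988 had 2 to 46 counts, ENSMUST00000164385 4 to 18, ENSMUST00000168216 4 to 11 and ENSMUST00000099958 at most 1.

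**Figure D3:**
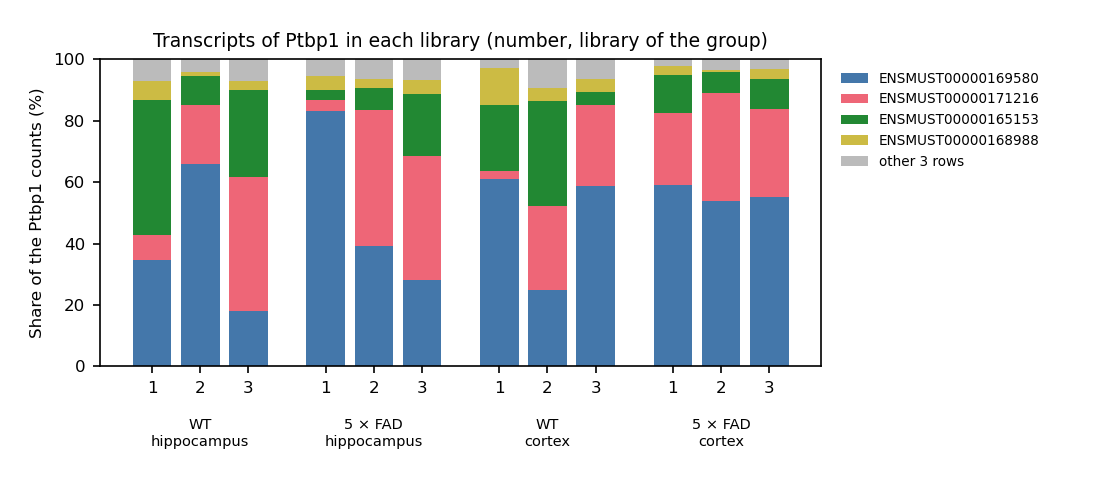
Share in percent of the Ptbp1 counts of each library that fell on each transcript, by group and library number. The share of ENSMUST00000169580 runs from 17.9% to 83.1% and that of ENSMUST00000165153 from 3.32% to 44.0%, with wide differences among libraries of one group in all but 5 × FAD cortex.

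Ptbp2, the relative of Ptbp1 that neurons express, had the most counts of the 6 genes. Its sums were 841, 864 and 741 in WT hippocampus, 843, 1119 and 439 in 5 × FAD hippocampus, 622, 740 and 590 in WT cortex and 760, 607 and 649 in 5 × FAD cortex. The 2 extreme libraries were both of 5 × FAD hippocampus, where 5 × FAD 3 was at 108 CPM and 5 × FAD 2 at 258 CPM. The genotype value there was 0.14 (SE 0.30, adjusted p = 0.912 by edgeR), and it was 0.43 (SE 0.15, adjusted p = 0.327) without the library labelled 5 × FAD 3. In the cortex it was 0.01 (SE 0.13, adjusted p = 0.993 by edgeR). Of the Ptbp2 counts, 90.3% fell on ENSMUST00000196343, a single exon of 4047 bases on the minus strand of chromosome 3 from 119738722 to 119742768, of which 3851 are outside coding exons. Per kilobase its mean level over the 12 libraries was 38.2 CPM per kb, and that of Rbfox3 ENSMUST00000128863 was 32.6. Ptbp2 ENSMUST00000198733 was at 30.4 and Ptbp1 ENSMUST00000171216, whose bases all lie in other transcripts of the table too, at 26.7. The order depended on the group: in 5 × FAD cortex the Ptbp1 transcript was at 47.7 CPM per kb and Ptbp2 ENSMUST00000196343 at 35.2. Srrm4 ENSMUST00000150127 was at 1.12 CPM per kb in WT hippocampus and 24.9 in 5 × FAD hippocampus. ENSMUST00000198733 had 41 to 98 counts, ENSMUST00000199026 3 to 9 and ENSMUST00000196203 at most 6. ENSMUST00000196066 and ENSMUST00000198399 were listed at 0 in every library.

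**Figure D4:**
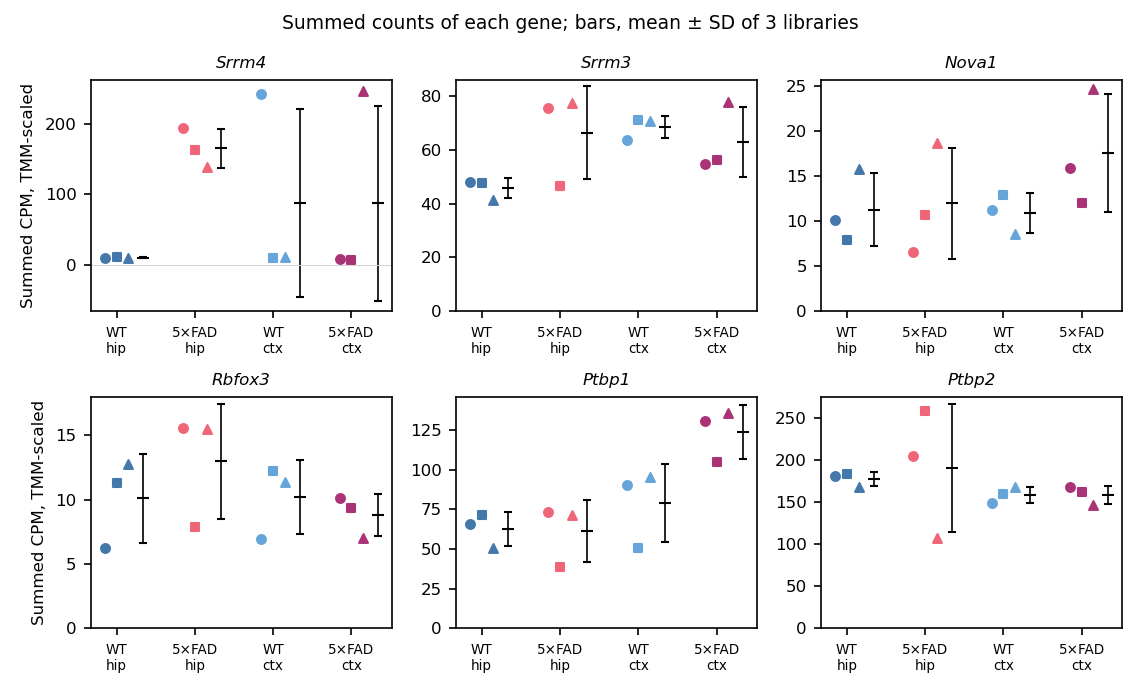
Summed CPM (TMM-scaled) of the transcripts of each of the 6 genes in the hippocampus (hip) and cortex (ctx) of WT and 5 × FAD mice, with points for libraries and bars for the mean ± SD of 3 libraries. Srrm4 is the only gene of the 6 with libraries in 2 separate ranges, and the Ptbp1 sums of 5 × FAD cortex (105 to 136 CPM) lie above those of WT cortex. That Ptbp1 difference did not pass (adjusted p = 0.74 by edgeR).

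Of the 22 transcripts, 20 had counts and 14 passed the filter on low counts over the 12 libraries. Outside the contrast that chose Srrm4, no transcript or sum of these genes passed an adjusted p of 0.05 by edgeR with TMM scaling and all libraries of the comparison. The exceptions under other settings were the Srrm3 sum between regions of WT mice with library size only or DESeq2, and the Srrm4 sum between regions of 5 × FAD mice without the library labelled 5 × FAD 3 of the cortex. In the cortex, 0 of 13 transcripts and 0 of 6 sums differed between genotypes (1 and 1 at an unadjusted p under 0.05, 0 and 0 passing by DESeq2), against 0.0545% of all transcripts and 0.0175% of all sums. Over the whole table, 1173 of 21999 transcripts and 761 of 11404 sums had an unadjusted p under 0.05 there. Between regions in WT mice, 0 of 14 transcripts and 0 of 6 sums passed (1 and 2 unadjusted, and 0 and 1 by DESeq2), where 0.986% of all transcripts and 3.49% of all sums did. The unadjusted counts stand beside 2824 of all 22007 transcripts and 1981 of all 11429 sums. Between regions in 5 × FAD mice the counts were 0 of 13 and 0 of 6 (0 and 1 unadjusted, 0 and 0 by DESeq2), against 0.0182% and 0.193%. Here 2066 of all 22016 transcripts and 1433 of all 11399 sums had an unadjusted p under 0.05. The difference of the genotype effect between regions passed for 0 of 14 and 0 of 6 (0 and 0 unadjusted, 0 and 0 by DESeq2), against 0.00812% of transcripts and 0% of 12104 sums. Of those sums, 848 had an unadjusted p under 0.05 and 23 passed by DESeq2. The median log2 fold change over the 6 sums was 0.01 in the cortex, -0.19 between regions in WT mice and 0.18 between regions in 5 × FAD mice, beside -0.00102, -0.02 and 0.01 over all sums. Without the library labelled 5 × FAD 3, 0 of 6 sums passed between genotypes in the cortex by edgeR, and 0 had an unadjusted p under 0.05. There the Ptbp1 sum was at 0.58 (SE 0.30, adjusted p = 0.839) and the Nova1 sum at 0.36 (SE 0.29, adjusted p = 0.888). In the hippocampus without the library of that label, the Nova1 sum was at -0.34, the Ptbp1 sum at -0.11, the Rbfox3 sum at 0.27 and the Srrm3 sum at 0.46, and none of these passed.

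**Figure D5:**
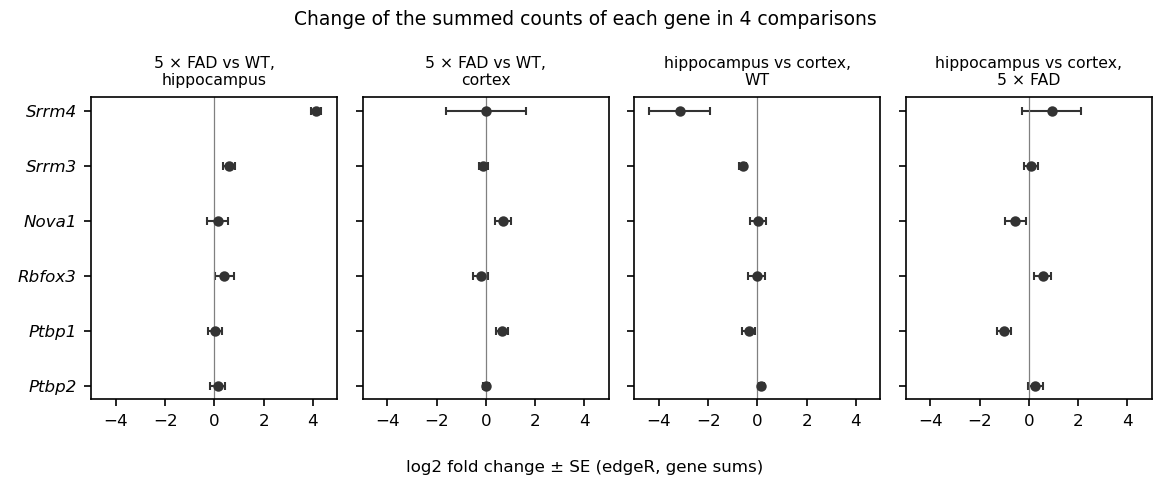
Log2 fold change ± SE by edgeR of the summed counts of each gene in the 4 comparisons (x axis). Only the Srrm4 value of the hippocampus comparison, which chose the gene, passed the threshold; the Srrm4 values of the other comparisons have SEs of 1.20 to 1.63.

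The features most like Srrm4 across the 12 libraries were found by Pearson's r of log2(CPM + 1). For ENSMUST00000150127, among 24618 transcripts of other genes, they were Mrps15 ENSMUST00000138739 (r = 0.89), Atp5mpl ENSMUST00000223435 (0.89), C330013E15Rik ENSMUST00000181034 (0.873), Trappc6b ENSMUST00000218523 (0.868) and Maged1 ENSMUST00000138731 (0.85). The Mrps15 transcript ranged from 72 to 160 counts, far less than the 21 to 1090 counts of Srrm4 ENSMUST00000150127. For the sum they were Mrps15 (0.909), C330013E15Rik (0.878), Ubxn6 (0.865), Fbxw11 (0.829) and Stag1 (0.815), of 12098 sums. All of these values rest on the same 12 libraries and are given as a description.

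Other regulators of splicing in the brain were compared as gene sums. Of 30 such genes, which include the Elavl, Celf, Khdrbs and Mbnl families, 25 had a transcript and 23 were tested. One was higher in the hippocampus of WT mice, Raver2, which encodes a partner of PTB proteins, with 38.5 to 47.7 CPM in the hippocampus and 11.5 to 20.5 CPM in the cortex (log2 fold change 1.44, SE 0.25, adjusted p = 0.0282 by edgeR), and 0 were lower. This is 1 of 23, against 3.49% of all sums. In 5 × FAD mice its value was 1.17 (SE 0.32, adjusted p = 0.217 by edgeR). In the genotype comparisons 0 of the 23 passed by edgeR. In the hippocampus 1 had an unadjusted p under 0.05, as did 986 of all 11343 sums, and in the cortex 0 did, against 761 of 11404. The median of the 23 was -0.02 in the hippocampus and -0.06 in the cortex, beside 0.03 and -0.00102 over all sums.

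Genes whose exons are known targets of these regulators were counted in the same way, by the level of their non-coding transcripts and not by exon inclusion. Of 25 genes, 21 had a transcript and all 21 were tested. Between regions of WT mice, Dab1, an adaptor of reelin signalling, was higher in the hippocampus (1.03, SE 0.19, adjusted p = 0.0354 by edgeR). Mef2c, a neuronal transcription factor, was lower (-1.41, SE 0.13, adjusted p = 0.00604 by edgeR), as was Camk2d, a calcium-dependent kinase (-0.73, SE 0.12, adjusted p = 0.0277). These are 3 of 21, against 3.49% of all sums. In every other comparison 0 of the 21 passed by edgeR. At an unadjusted p under 0.05 there was 1 of 21 in each genotype comparison, against the same 986 and 761 over all sums, and the medians of the 21 were -0.06 in the hippocampus and -0.11 in the cortex.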

How the data were processed

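Counts of long RNA were analysed for 12 libraries. The authors deposited raw counts per transcript, not normalized. The labels name Trimmomatic 0.36 and edgeR, and the aligner, counter and genome build of this table are not given in the sources used here, where an aligner is named for circRNAs. All columns were used, and 0 were left out. Of 45597 Ensembl identifiers, 45372 matched GENCODE M21 (GRCm38), which gave names, positions and transcript sequences, and 2436 transcripts were assembled loci. Library numbers came from the codes in the titles, and the series gives 3 mice per group. The whole table was tested by edgeR 4.0.16 (R 4.3.3: filterByExpr, TMM, glmQLFit, glmQLFTest) with Benjamini-Hochberg adjustment at 0.05, per transcript and per gene sum, in the 6 libraries of each comparison or in 12 for the interaction. The SE is the log2 fold change over the square root of F. Alternatives were other scalings, DESeq2 1.42.0, other filters, all 12 libraries, a replicate block, only libraries with Y-linked transcripts and each library left out. Named features were the 6 gene sums, all Srrm4 transcripts, each other gene's main transcript, the 5 features most like Srrm4 and list genes past 0.05. Ptbp1 ENSMUST00000171216 and the marker Etv1 were given fold changes outside this rule, and other transcripts of the set were described by their counts. The genes and lists were chosen with earlier results of these data known. Functions were tested on simulated data. Plots used Python 3.11.15 with matplotlib 3.10.9.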

Additional observations from a re-analysis of the deposited data

How the results depend on the processing

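The counts of transcripts and genes of this set that passed were unchanged in 143 of 154 alternative fits. In the hippocampus, where 1 transcript and 1 gene, Srrm4, passed between genotypes, 0 transcripts passed with all 12 libraries in one fit, with the replicate block or with only the libraries that held Y-linked transcripts, and the number without 1 library was 0 to 1, being 0 without WT 1, WT 2 or WT 3. There, 0 genes passed with all 12 libraries or without WT 1, and the range was 0 to 1. Srrm4 ENSMUST00000150127 stayed between 4.23 and 4.63 in all 15 alternatives. Between regions of WT mice, 1 gene, Srrm3, passed with library size only and with DESeq2, against 0. Between regions of 5 × FAD mice, 1 gene, Srrm4, passed without 5 × FAD 3 of the cortex, and the range was 0 to 1. That fit leaves out the only high cortex library of its group and uses the hippocampus values for which Srrm4 was chosen, so nothing is read from it. The cause was not tested.

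Over all features, DESeq2 called more than edgeR: 127 against 4 transcripts and 83 against 6 sums between genotypes in the hippocampus, 102 against 12 and 53 against 2 in the cortex, 743 against 217 and 761 against 399 between regions of WT mice, 366 against 4 and 336 against 22 in 5 × FAD mice, and 99 against 2 and 23 against 0 for the interaction.

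Fits with only the libraries that held Y-linked transcripts have 1 library, labelled 5 × FAD 3, in the 5 × FAD arm, which is assumed to vary like the WT libraries. The other sign changes were in values that passed in no fit. The log2 fold change of the Srrm4 sum between genotypes in the cortex was 0.01 and became -0.0034 with library size only, -0.0029 with no filter and -0.4307 with the replicate block, and leaving out 1 library gave -3.53 (without 5 × FAD 3) to 3.02 (without WT 1). In the same comparison the Srrm3 sum was 0.1915 with only the libraries that held Y-linked transcripts, and the Ptbp2 sum was -0.1025 there, -0.0007 with Ensembl transcripts only for scaling, -0.001 with no filter and -0.0444 to 0.0583 without 1 library. In the hippocampus, the Ptbp1 sum was -0.0009 with DESeq2's size factors, -0.001 with DESeq2, -0.0372 with Ensembl transcripts only for scaling, -0.0042 with no filter, -0.015 with all 12 libraries, -0.0264 with the replicate block and -0.1501 to 0.2578 without 1 library. There, with only the libraries that held Y-linked transcripts, the Ptbp2 sum was -0.6888 and Srrm4 ENSMUST00000201430 was -0.7438, and leaving out 1 library gave -0.1283 to 0.4267 for the former, -0.3204 to 0.5298 for the latter and -0.3411 to 0.4348 for the Nova1 sum. Between regions of WT mice, the Nova1 sum was -0.031 with library size only, -0.018 with the replicate block and -0.3032 to 0.2337 without 1 library. Without 1 library, the Rbfox3 sum was -0.2564 to 0.2172 and Srrm4 ENSMUST00000150127 was -4.08 to 0.28 there, and the latter was -3.86 to 3.84 between genotypes of the cortex. Between regions of 5 × FAD mice, leaving out 1 library gave -0.0377 to 0.2946 for the Srrm3 sum, -0.2254 to 0.1165 for Srrm3 ENSMUST00000146038 and -0.0032 to 0.5511 for the Ptbp2 sum.

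Among these genes, the replicate block changed no call other than that of Srrm4 ENSMUST00000150127. Over the whole table it took the number passing between regions of WT mice from 217 to 0 transcripts and from 399 to 5 sums. In 5 × FAD mice it took the sums from 22 to 0. Between the regions, deviations of same-numbered libraries from their group means correlated at 0.006 to 0.0258 (WT) and 0.0319 to 0.132 (5 × FAD). Between the genotypes they correlated at -0.0221 to 0.00851 (hippocampus) and -0.0388 to -0.0243 (cortex), over 3 pairs in each case. Differently numbered libraries of 5 × FAD mice correlated at -0.106 to 0.0581 between the regions. The labels do not say whether a shared number is a shared mouse, and the numbers were not taken to pair the libraries.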

Other observations

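Transcripts with a wide gap between libraries were counted over the whole table, with a definition made after the values of Srrm4 were seen. A gap was taken as at least 10-fold between neighbouring libraries in order of level, in transcripts whose highest library reached 50 CPM. Of 5417 such transcripts, 571 (10.5%) had a gap. Assembled transcripts had one in 379 of 1786 (21.2%) and processed transcripts in 100 of 650 (15.4%). Retained-intron transcripts, the class of Srrm4 ENSMUST00000150127, had one in 69 of 2652 (2.60%). Among them, those with at least 90% of their bases in exons of coding transcripts, as for Srrm4 ENSMUST00000150127 at 96.9%, had a gap in 29 of 295 (9.83%), and the others in 40 of 2357 (1.70%). Of the 3 transcripts of the splicing regulators that reached 50 CPM, 1 had a gap, and it was ENSMUST00000150127. Its high libraries, which include those for which it was chosen, put it above 50 CPM and made its gap. It is also among the 29 of its class with a gap, so nothing is read from these counts about Srrm4. The cause of the gaps was not tested.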
